A study of Gallus gallus with 12 samples.

Results

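The STEAP metalloreductases and the genes of cellular copper transport were described in feather follicles of yellow and white chickens. Members were taken by gene symbol, and 7 of the 8 names sought had a row among the 24353 genes of the deposited table: STEAP4, STEAP2, STEAP3, SLC31A1, ATOX1, ATP7A and ATP7B. STEAP1 matched no row by symbol and was not analysed here. The members were selected on 1 measured value, the higher STEAP4 of yellow follicles at 11 weeks, so the colour values of that age are given as a description only, without a test, and STEAP4 was not tested in any comparison that involves the 11-week libraries.

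Follicles were plucked from the nape of F3 birds of a Huiyang Bearded X White Leghorn cross and hold both epithelium and pulp. Each of 4 groups had 3 libraries: yellow at 11 weeks, white at 11 weeks, yellow at 7 weeks and white at 7 weeks. All birds were hens of the s/W genotype at Silver, carried no recessive white allele, and had at least 1 copy of Dominant white, an allele of PMEL that also marks the White Leghorn parent. The white birds of 11 weeks were all homozygous for Dominant white, whereas yellow replicates 1 and 3 of that age were heterozygous and yellow replicate 4 was homozygous. At 7 weeks, yellow replicate 4 and white replicates 1 and 3 were homozygous and the other 3 birds heterozygous.

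Copper in its reduced form enters animal cells through SLC31A1 (also called CTR1), is handed by the chaperone ATOX1 to the copper pumps ATP7A and ATP7B, and is carried by these into the trans-Golgi network, where copper enzymes are loaded. STEAP proteins are membrane reductases that turn ferric iron and cupric copper into the forms that metal transporters accept. In mammalian melanocytes ATP7A also reaches the melanosome and supplies the copper that tyrosinase needs to start melanin synthesis.

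Values are FPKM, fragments scaled to gene length and to the number of mapped fragments. Differences are given in log2(FPKM + 0.1), and the added 0.1 makes the change of low genes look smaller than it is. The table holds no read counts, the reads behind a single FPKM cannot be worked out from it, and the spread of the libraries gives the precision. The p-values set a difference between groups against the spread between these libraries, each treated as a separate bird. In whole follicles, fewer cells of a type and less RNA per cell cannot be told apart. Summed FPKM per library were 640571 to 711831 in the older and 700237 to 830214 in the younger birds. Yellow replicate 3 of 11 weeks stood apart: 5.37% of 14806 genes were more than 2 times above every other library of that age, against 0.270% to 1.38% in the other 5 libraries.

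The 7 genes spanned a wide range of levels, and their order shifted between groups. ATOX1 had the highest mean over all 12 libraries, 122 FPKM, which 3.46% of tested genes exceeded. SLC31A1 followed at 13.5 FPKM, in a range that no other member reached in any library. The other 5 were low: STEAP3 averaged 2.62, ATP7A 1.34, STEAP2 1.06, STEAP4 0.969 and ATP7B 0.306 FPKM, the last exceeded by 89.8% of tested genes.

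In yellow follicles at 11 weeks STEAP4, STEAP3, STEAP2 and ATP7A overlapped in their library values. In white follicles at 11 weeks STEAP3 overlapped STEAP2 and STEAP2 overlapped ATP7A, while STEAP4 lay below these 3 and overlapped ATP7B. At 7 weeks STEAP3 was above STEAP2, STEAP4, ATP7A and ATP7B in every library of either colour. In white follicles at 7 weeks ATP7B was below all others, whereas in yellow follicles at 7 weeks its range met that of STEAP4.

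**Figure D1:**
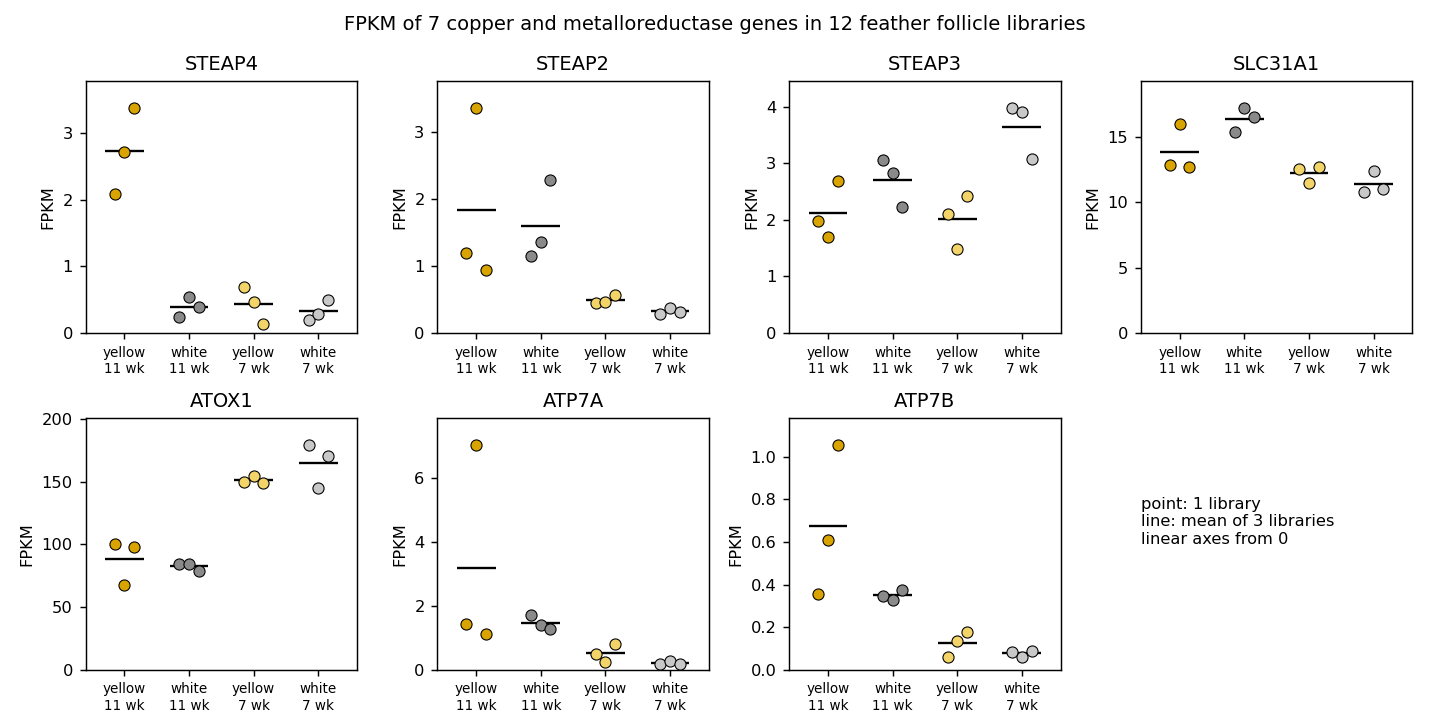
FPKM of the 7 genes on linear axes from 0, with 1 point per library and a line at the mean of 3 libraries, for yellow and white follicles at 11 weeks and at 7 weeks. The 3 yellow libraries of 11 weeks stand alone for STEAP4, between 2.09 and 3.38 FPKM, and yellow replicate 3 of that age is the high point for STEAP2 and ATP7A.

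STEAP4 (ENSGALG00000008997, GRCg6a chromosome 2, 21007326 to 21026905) encodes a metalloreductase known in mouse from fat tissue, where inflammation raises it. Its FPKM was 2.09, 2.72 and 3.38 in yellow follicles at 11 weeks and 0.236, 0.541 and 0.384 in white follicles at 11 weeks. The 7-week values were 0.694, 0.464 and 0.141 in yellow follicles and 0.201, 0.281 and 0.495 in white follicles. The 3 yellow libraries of 11 weeks were thus above all 9 others, which overlapped among themselves.

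The means were 2.73 ± 0.644 in yellow and 0.387 ± 0.153 FPKM in white follicles at 11 weeks, and 0.433 ± 0.278 in yellow and 0.326 ± 0.152 FPKM in white follicles at 7 weeks (SD, n = 3 each). At 11 weeks the difference, yellow over white, was 2.56 (standard error 0.33), which is 5.91-fold in FPKM + 0.1, and 0.419% of tested genes had a higher difference. With a pseudocount of 1 in place of 0.1 it was 1.42. Without replicate 3, the yellow library that stood apart, it was 2.55. The homozygous yellow bird of 11 weeks, replicate 4, had the highest value of all, 3.38 FPKM, against 0.541 FPKM in the highest of the white birds of that age, all homozygous as well. At 7 weeks the homozygous yellow replicate 4 had the lowest value of all, 0.141 FPKM, against 0.694 and 0.464 FPKM in the heterozygous yellow birds. The part of the Dominant white genotype in these values was not tested.

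The 11-week over 7-week difference of STEAP4 was 2.55 (standard error 0.48) in yellow follicles, where the ages did not overlap, and 0.20 (standard error 0.36) in white follicles, where they did. Quantile normalization lowered the value in yellow follicles to 1.64, and centring by span lowered it to 1.69. In white follicles these settings gave -0.66 and -0.74. Centring by span subtracts, in each library, the median level of genes of like span. Minus the median age difference of genes of like span, STEAP4 was at 1.90 in yellow and -0.55 in white follicles. At 7 weeks, where the selection used no value, the colours overlapped in STEAP4 (log2 difference 0.22, standard error 0.50, limma's adjusted p = 0.825 after Benjamini-Hochberg), and the two-sided exact permutation test of 3 against 3 gave p = 0.80. That difference was -0.15 without yellow replicate 1 and -0.00 without white replicate 1.

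Marker genes of other cell types were summed beside this result. At 11 weeks the 8 melanocyte markers summed to 134 to 197 FPKM in yellow follicles and 279 to 550 FPKM in white follicles, none of them listed at 0 throughout. PMEL (mean 66.3 FPKM in yellow, 256 FPKM in white follicles) and MLANA (39.2 and 118 FPKM) were the most abundant of these markers. Singly, 7 of the 8 were lower in yellow follicles, from -1.90 for PMEL to -0.18 for EDNRB2, and KIT was higher (0.63). None of the 8 passed both thresholds in the test used here. The paper called PMEL and MLANA at 7 and at 11 weeks. Its quantitative PCR found both significantly lower in yellow follicles at these ages, and no significant difference for TYR. The 4 endothelial markers summed to 20.6 to 30.6 FPKM in yellow and 16.2 to 19.4 FPKM in white follicles, again without overlap. Nor did the 9 keratinocyte markers overlap, at 1323 to 1746 FPKM in yellow and 1766 to 1811 FPKM in white follicles. The median log2 difference of the keratinocyte markers was -0.05. The 6 markers of macrophages and other leukocytes overlapped, at 56.1 to 120 FPKM in yellow and 66.7 to 88.6 FPKM in white follicles, as did the 7 adipocyte markers at 35.9 to 50.2 and 39.1 to 50.6 FPKM. The part of these cells in the STEAP4 values was not tested.

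The genes whose log2 levels ran most closely with STEAP4 over the 12 libraries, among 9131 named genes whose mean FPKM was 1 or more, were MGLL, a lipase of monoglycerides (Pearson r = 0.91), ADA, adenosine deaminase (r = 0.90), BHLHE40, a transcriptional repressor (r = 0.90), GTF2IRD1, a transcription factor (r = 0.88), and CD9, a tetraspanin (r = 0.87). The 12 points share age and colour groups, so these values describe the likeness and carry no p. MGLL ranged from 35.9 to 51.3 FPKM in yellow and 16.7 to 22.6 FPKM in white follicles at 11 weeks. At 7 weeks it ranged from 19.2 to 27.6 FPKM in yellow and 14.1 to 23.1 FPKM in white follicles. That it was highest in the 3 yellow libraries of 11 weeks follows from its choice by likeness to STEAP4 and is no separate result. Of the other members, ATP7B came nearest to STEAP4 (r = 0.68), followed by ATP7A (r = 0.54) and STEAP2 (r = 0.50). Of the 9131 genes, 2.99% had a higher r than ATP7B, 24.3% a higher r than ATP7A and 34.7% a higher r than STEAP2. SLC31A1 had r = 0.16, STEAP3 r = -0.46 and ATOX1 r = -0.49.

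STEAP2 (ENSGALG00000009017, GRCg6a chromosome 2, 21667321 to 21673630) lies on the same chromosome as STEAP4 and encodes a ferric and cupric reductase of the secretory and endocytic pathways. Its FPKM was 1.19, 3.36 and 0.943 in yellow follicles at 11 weeks and 1.15, 1.36 and 2.29 in white follicles at 11 weeks. In the younger birds it was 0.455, 0.471 and 0.573 in yellow follicles and 0.292, 0.377 and 0.318 in white follicles. All 6 libraries of 11 weeks were above all 6 of 7 weeks, and the colours overlapped at 11 weeks but not at 7 weeks.

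STEAP2 rose with age in white follicles by 1.93 (standard error 0.28, limma's adjusted p = 0.000934 after Benjamini-Hochberg) and in yellow follicles by 1.48 (standard error 0.48, limma's adjusted p = 0.0408). The call in yellow follicles was lost in 12 of 19 alternatives, whose adjusted p ran from 0.00976 to 0.367 over all 19, and every library but 1 decided it: the difference was 0.96 without yellow replicate 3 of 11 weeks, and limma's adjusted p was 0.0609 without replicate 1 of 11 weeks and 0.111, 0.105 and 0.0699 without replicates 1, 3 and 4 of 7 weeks. In white follicles a pseudocount of 1 took it to 0.94. Over both colours the rise was 1.71 (standard error 0.29, limma's adjusted p = 0.000275), and the exact permutation test stratified by colour gave its smallest possible p of 0.0050. Quantile normalization and a pseudocount of 1 took that rise below the fold threshold, to 0.78 and 0.88.

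By colour, STEAP2 differed at 11 weeks by 0.04 (standard error 0.50), and by -0.49 without yellow replicate 3. At 7 weeks the difference of 0.48 (standard error 0.26) did not pass the test (limma's adjusted p = 0.374), although every yellow library was above every white one, which held for 12.1% of the genes tested at that age (exact permutation test, p = 0.10, the smallest that 3 against 3 allows).

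Between STEAP4 and STEAP2 the table holds 6 rows, of which 3 are listed at 0 in all libraries. The row nearest to STEAP2, the unnamed ENSGALG00000009006 (GRCg6a chromosome 2, 21641462 to 21650943), had 0.650, 1.51 and 1.03 FPKM in yellow follicles at 11 weeks and 1.41, 1.56 and 1.83 FPKM in white follicles at 11 weeks. The younger birds had 0.315, 0.401 and 0.669 FPKM in yellow follicles and 0.154, 0.362 and 0.417 FPKM in white follicles. In the RefSeq annotation of the later assembly GRCg7b the gene beside STEAP2 is STEAP1, but the table gives this row no symbol and it was not counted as a member.

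STEAP3 (ENSGALG00000012117, GRCg6a chromosome 7, 28404444 to 28422283) encodes the ferrireductase that releases transferrin iron from endosomes in mouse erythroid precursors. Its FPKM was 1.98, 1.69 and 2.69 in yellow follicles at 11 weeks and 3.06, 2.82 and 2.22 in white follicles at 11 weeks. In younger birds STEAP3 was 2.11, 1.48 and 2.43 in yellow follicles and 3.97, 3.90 and 3.07 in white follicles. The yellow libraries of 7 weeks were all below the white ones of that age, and at 11 weeks the colours overlapped.

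At 7 weeks STEAP3 was at 2.01 ± 0.479 FPKM in yellow and 3.65 ± 0.500 FPKM in white follicles (SD, n = 3 each), a log2 difference of -0.85 (standard error 0.22). The difference missed the threshold after adjustment (limma's adjusted p = 0.282 after Benjamini-Hochberg, 0.109 to 0.656 over the alternatives), and the exact permutation test gave p = 0.10. Libraries did not overlap with yellow lower for 8.04% of genes at this age, and 98.7% of tested genes of like span had a higher difference than STEAP3. The 8 melanocyte markers summed to 192 to 360 FPKM in yellow and 636 to 1548 FPKM in white follicles at 7 weeks, and the 7 erythroid markers, with HBE listed at 0 throughout, to 72.5 to 129 and 103 to 173 FPKM. Of the 8 melanocyte markers 7 were lower in yellow follicles, from -2.25 for PMEL to -0.14 for EDNRB2, and KIT was higher (0.70). None of the 8 passed both thresholds in the test used here, whereas the paper called PMEL and MLANA at this age too. The part of these cells in the STEAP3 values was not tested.

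With age, STEAP3 differed in white follicles by -0.42 (standard error 0.17, limma's adjusted p = 0.0622), with every 11-week library below every 7-week one. In yellow follicles the value was 0.08 (standard error 0.29, limma's adjusted p = 0.843) and turned negative under median-of-ratios scaling, quantile normalization and centring by span, to -0.30, -0.78 and -0.77. In white follicles quantile normalization and centring by span took STEAP3 past both thresholds, at -1.21 and -1.37.

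**Figure D2:**
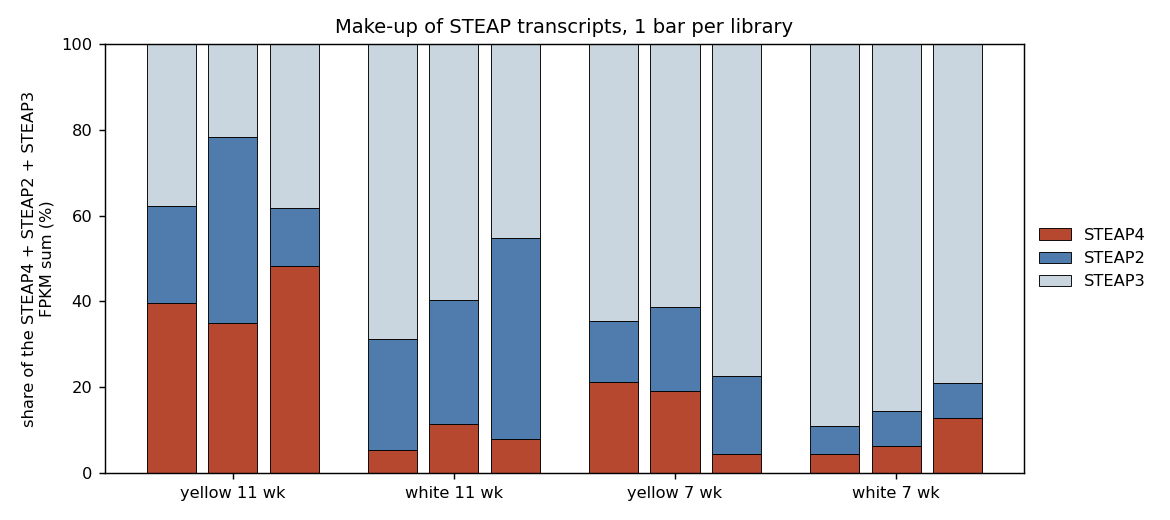
Share of STEAP4, STEAP2 and STEAP3 in the sum of their FPKM, in percent, with 1 bar for each of the 12 libraries. STEAP4 makes up 35.0% to 48.2% in yellow follicles at 11 weeks and at most 21.3% in any other library, and STEAP3 makes up 79.1% to 89.0% in white follicles at 7 weeks.

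The make-up of STEAP transcripts differed accordingly. STEAP4 was 35.0% to 48.2% of the STEAP4, STEAP2 and STEAP3 sum in yellow follicles at 11 weeks and 5.31% to 11.5% in white follicles at 11 weeks, 4.50% to 21.3% in yellow follicles at 7 weeks and 4.50% to 12.7% in white follicles at 7 weeks. STEAP3 was the most abundant of the 3 in all 6 libraries of 7 weeks, at 61.4% to 77.3% of the sum in yellow and 79.1% to 89.0% in white follicles. At 11 weeks STEAP3 led in 2 of 3 white libraries, STEAP2 in white replicate 4 and yellow replicate 3, and STEAP4 in yellow replicates 1 and 4.

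SLC31A1 (ENSGALG00000008844, GRCg6a chromosome 17, 1846198 to 1870295), the importer at the cell surface, was the steadiest member. Its FPKM was 12.9, 16.0 and 12.7 in yellow follicles at 11 weeks and 15.4, 17.2 and 16.6 in white follicles at 11 weeks. The 7-week libraries had 12.6, 11.5 and 12.7 in yellow follicles and 10.8, 12.4 and 11.0 in white follicles. All 12 libraries lay between 10.8 and 17.2 FPKM, and the colours overlapped at both ages.

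In white follicles SLC31A1 differed by 0.52 between the ages (standard error 0.08, limma's adjusted p = 0.00168 after Benjamini-Hochberg), below the fold threshold, and close to the median of all genes, 0.47, while centring by span turned it to -0.42. In yellow follicles the value was 0.17 (standard error 0.14, limma's adjusted p = 0.340) and turned to -0.23 with median-of-ratios scaling, -0.12 with quantile normalization and -0.68 with centring by span. Over both colours the value was 0.35 (standard error 0.08, limma's adjusted p = 0.00181, stratified exact permutation p = 0.0050), below the fold threshold. It turned to -0.10 with median-of-ratios scaling and -0.55 with centring by span. Relative to genes of like span SLC31A1 was lower at 11 weeks by 0.34 over both colours. The colour difference at 7 weeks was 0.10 (standard error 0.11, limma's adjusted p = 0.607), and at 11 weeks it was -0.25 (standard error 0.12).

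ATOX1 (ENSGALG00000004176, GRCg6a chromosome 13, 13610527 to 13614853), the cytosolic copper chaperone, was lower at 11 weeks in both colours. Its FPKM was 100.1, 67.8 and 97.7 in yellow follicles at 11 weeks and 84.7, 84.3 and 79.0 in white follicles at 11 weeks. The 7-week libraries had 149.8, 154 and 149.1 in yellow follicles and 179.6, 145 and 171 in white follicles. The 6 libraries of 11 weeks were all below the 6 of 7 weeks, and the colours overlapped at each age.

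The difference was -0.79 in yellow follicles (standard error 0.15, limma's adjusted p = 0.00869 after Benjamini-Hochberg) and -0.99 in white follicles (standard error 0.09, limma's adjusted p = 0.000168), each past the test and short of the fold threshold, a log2 change of 1. In white follicles 6 of 19 alternatives took it past that threshold, among them those without white replicates 1 and 3 of 11 weeks (-1.01 each) and without white replicate 2 of 7 weeks (-1.08). Over both colours it was -0.89 (standard error 0.09, limma's adjusted p = 1.03e-05), and the stratified exact permutation test gave its smallest possible p of 0.0050. ATOX1 stayed lower at 11 weeks in all 25 alternatives over both colours, which gave -1.34 to -0.59. Of these settings, 2 took it past the threshold, median-of-ratios scaling (-1.34) and centring by span (-1.09). Minus the median difference of genes of like span ATOX1 was at -0.97, short of that threshold. It was lower still against the median of all genes, by -1.33, and 95.1% of tested genes had a higher value. By colour ATOX1 differed by 0.08 (standard error 0.15) at 11 weeks and by -0.12 at 7 weeks (standard error 0.09, limma's adjusted p = 0.507).

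The ratio of ATOX1 to SLC31A1, chaperone to importer, was 4.24 to 7.78 in yellow follicles at 11 weeks and 4.78 to 5.49 in white follicles at 11 weeks. At 7 weeks it was 11.7 to 13.5 in yellow and 11.7 to 16.6 in white follicles. Every 11-week library was below every 7-week library, whatever the colour, and the value does not depend on the scaling of a library as a whole. It can still carry the trend with gene span given below, since the genes are of unlike span. The median age difference over both colours was 0.08 in the span group of ATOX1 and 0.69 in that of SLC31A1. Against these medians ATOX1 differed by -0.97 and SLC31A1 by -0.34. The part of span in the ratio was not tested.

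ATP7A (ENSGALG00000007902, GRCg6a chromosome 4, 12911844 to 12929913) encodes the copper pump that feeds secreted and melanosomal enzymes. Its FPKM was 1.44, 7.03 and 1.10 in yellow follicles at 11 weeks and 1.71, 1.40 and 1.26 in white follicles at 11 weeks. Values at 7 weeks were 0.478, 0.255 and 0.791 in yellow follicles and 0.170, 0.267 and 0.171 in white follicles. All libraries of 11 weeks were above all of 7 weeks, and the colours overlapped at each age, with yellow replicate 3 of 11 weeks far above the rest.

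ATP7A rose with age in white follicles by 2.37 (standard error 0.22, limma's adjusted p = 0.000176 after Benjamini-Hochberg), and in yellow follicles the value was 2.06 (standard error 0.71, limma's adjusted p = 0.0508), just outside the threshold. Of 19 alternatives, 4 took ATP7A past it in yellow follicles, with adjusted p from 0.0105 to 0.219 over all 19, and without replicate 3 of 11 weeks the difference was 1.26 (limma's adjusted p = 0.0690), against 2.55 without replicate 4 (limma's adjusted p = 0.0361). Over both colours the rise was 2.22 (standard error 0.41, limma's adjusted p = 0.000491; stratified exact permutation p = 0.0050), it passed both thresholds in all 25 alternatives, and 4.38% of tested genes had a higher value. Without yellow replicate 3 it was 1.82.

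By colour, ATP7A differed at 11 weeks by 0.61 (standard error 0.65), and by -0.19 without yellow replicate 3. At 7 weeks the value was 0.92 (standard error 0.39, limma's adjusted p = 0.332, exact permutation p = 0.20), and 2.86% of tested genes had a higher one.

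ATP7B (ENSGALG00000017021, GRCg6a chromosome 1, 171640607 to 171674156), the related pump known in mammals for export of copper from the liver, was the lowest member. Its FPKM was 0.356, 0.610 and 1.06 in yellow follicles at 11 weeks and 0.345, 0.326 and 0.375 in white follicles at 11 weeks. Values at 7 weeks were 0.0596, 0.135 and 0.175 in yellow follicles and 0.0839, 0.0619 and 0.0861 in white follicles. The ages did not overlap in either colour, and the colours overlapped at both ages.

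ATP7B rose with age by 1.73 in yellow follicles (standard error 0.45, limma's adjusted p = 0.0204 after Benjamini-Hochberg) and by 1.34 in white follicles (standard error 0.22, limma's adjusted p = 0.00187). At these levels the pseudocount weighs heavily: with a pseudocount of 1 the differences were 0.56 and 0.32, below the fold threshold. The call was lost in 6 of 18 alternatives in yellow follicles, including those without yellow replicate 4 of 11 weeks (1.39, limma's adjusted p = 0.0573) and without yellow replicates 1 and 3 of 7 weeks in turn (1.50 and 1.78, adjusted p = 0.0744 and 0.0541), and in 3 of 18 in white follicles. Over both colours the rise was 1.53 (standard error 0.25, limma's adjusted p = 0.000194; stratified exact permutation p = 0.0050), and it was below the fold threshold with a pseudocount of 1 (0.44), quantile normalization (0.85) and centring by span (0.64). By colour ATP7B differed by 0.69 (standard error 0.39) at 11 weeks and 0.30 (standard error 0.34, limma's adjusted p = 0.654) at 7 weeks.

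ATP7A was above ATP7B in each of the 12 libraries, by 1.04 to 11.5 times. Both of these extremes were yellow libraries of 11 weeks, the low one replicate 4, in which ATP7B was highest, and the high one replicate 3, in which ATP7A was highest.

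**Figure D3:**
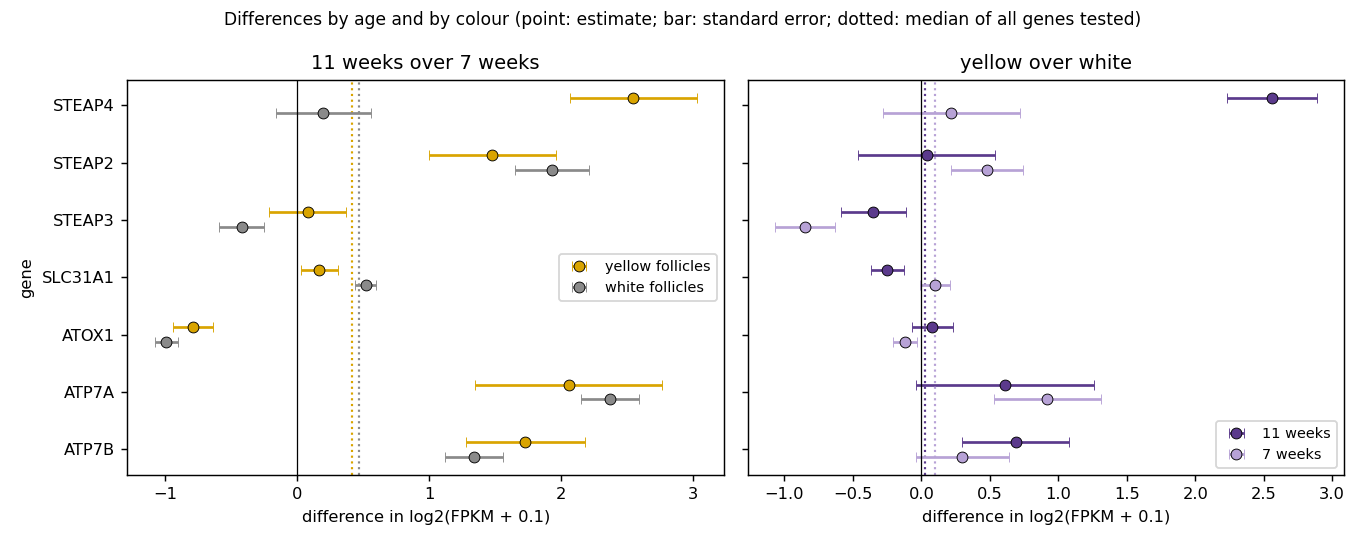
Differences in log2(FPKM + 0.1) of the 7 genes, at 11 weeks over 7 weeks in yellow and in white follicles (left) and yellow over white at 11 and at 7 weeks (right), with standard errors. Dotted lines give the median of all genes tested. STEAP2, ATP7A and ATP7B lie above the median with age in both colours and ATOX1 below 0, while SLC31A1 in both colours and STEAP3 in yellow follicles change sign under other scalings; STEAP4 is at 2.55 in yellow and 0.20 in white follicles.

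In yellow follicles 2 of the 6 tested members passed both thresholds and were higher at 11 weeks, STEAP2 and ATP7B, against a background of 20.2% of all genes tested in that direction. In white follicles STEAP2, ATP7A and ATP7B did, 3 of 6, against 26.6%. Over both colours the same 3 passed, against 25.0%, and no tested member passed in the lower direction, where the background was 2.96% over both colours, 2.08% in yellow and 4.49% in white follicles. The ages did not overlap, with 11 weeks higher, for STEAP2, SLC31A1, ATP7A and ATP7B in both colours and for STEAP4 in yellow follicles. This was a pattern of 44.7% of genes in yellow and 52.9% in white follicles. Any gene with this pattern in both colours reaches the smallest p of the stratified exact permutation test, 0.0050, SLC31A1 among them. For SLC31A1 in yellow follicles the ages barely parted, with 12.702 FPKM the highest at 7 weeks and 12.7147 FPKM the lowest at 11 weeks. The ages did not overlap, with 11 weeks lower, for ATOX1 in both colours and STEAP3 in white follicles, as for 14.3% of genes in yellow and 17.7% in white follicles. At 7 weeks 0 of 7 members passed both thresholds by colour, against 0.0288% of 13895 genes. The colours of that age did not overlap for STEAP2, with yellow higher, as for 12.1% of genes, and for STEAP3, with yellow lower, as for 8.04%. At 11 weeks STEAP4 alone did not overlap between the colours, against 7.99% of genes that did not overlap with yellow higher. In limma 0.00% of 14806 genes passed both thresholds at that age, although 1070 had an unadjusted p under 0.05. The paper, with DEGseq and the same thresholds, listed STEAP4 among its differentially expressed genes of 11 weeks.

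Whether the age difference differed by colour was tested for the 6 members other than STEAP4, and none passed (limma's adjusted p = 0.738 to 0.952 after Benjamini-Hochberg), among 14553 genes of which 0.00% passed and 973 had an unadjusted p under 0.05. For STEAP4 the difference of the age differences, yellow minus white, was 2.34 (standard error 0.63), given without a test.

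The age comparison moved most of the transcriptome, and the members are to be read against it. The median of all genes tested was 0.44 over both colours, 0.42 in yellow and 0.47 in white follicles. Of the genes that passed over both colours 89.4% were higher at 11 weeks, a share that was 59.9% with median-of-ratios scaling and 56.0% with quantile normalization, which brought the median to 0.03 and -0.04. The difference also went with gene span, the length of the locus in the genome: in 5 equal groups of span the median was -0.26, 0.08, 0.43, 0.69 and 0.96, shortest first. Against genes of its own span group, ATP7A was higher by 1.53, STEAP2 by 1.63 and ATP7B by 0.85, whereas ATOX1 differed by -0.97, STEAP3 by -0.86 and SLC31A1 by -0.34. Yellow replicate 3 of 11 weeks, highest for ATP7A and STEAP2, deviated from its age group in the same way, with a Spearman correlation of deviation and span of 0.34 across genes, against -0.23 to -0.07 in the other 5 libraries. By colour at 7 weeks the difference went with span too, with a Spearman correlation of 0.36 across genes and medians of -0.09 in the shortest and 0.27 in the longest group. Yellow replicates 1 and 4 of 7 weeks had correlations of deviation and span of 0.29 and 0.37, against -0.30 to -0.07 in the other 4 libraries of that age. Against genes of like span the colour differences at 7 weeks were 0.74 for ATP7A, 0.47 for STEAP2 and -1.03 for STEAP3. The part of span in the members' differences was not tested beyond these values.

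**Figure D4:**
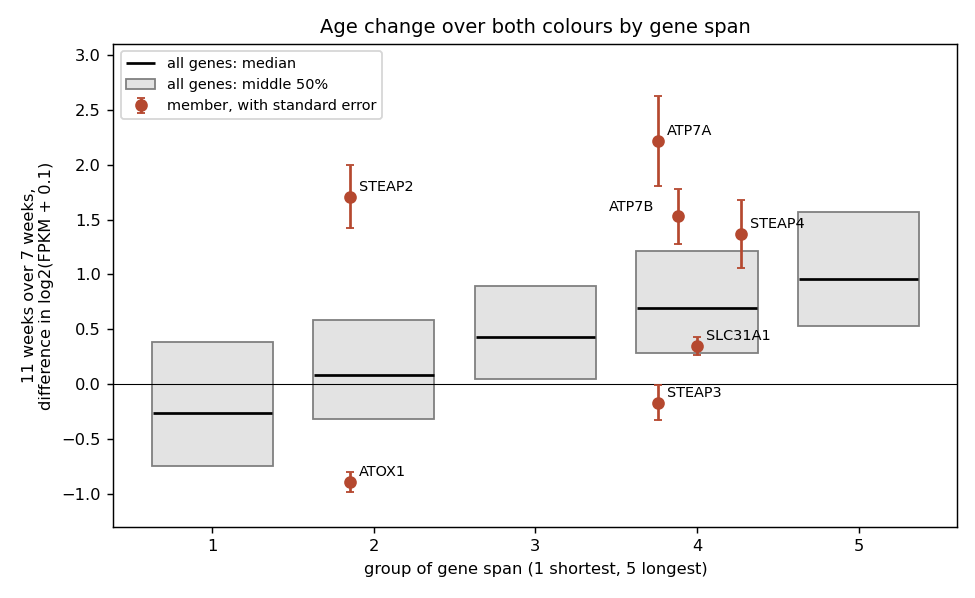
Difference in log2(FPKM + 0.1), 11 weeks over 7 weeks over both colours, by group of gene span, 5 of equal size. Boxes hold the middle 50% of all genes tested, lines are their medians, from -0.26 in the shortest to 0.96 in the longest group, and red points are the 7 members with standard errors; STEAP2 and ATOX1 lie on opposite sides of the box of their shared group.

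Marker sums moved with age too. The 4 endothelial markers summed to 20.6 to 30.6 FPKM at 11 weeks and 9.49 to 15.8 FPKM at 7 weeks in yellow follicles. In white follicles they summed to 16.2 to 19.4 FPKM at 11 weeks and 9.17 to 9.74 FPKM at 7 weeks. Their median log2 difference over both colours was 0.87. These markers are long genes of span groups 4 and 5, where the medians of all genes were 0.69 and 0.96. The part of span in the endothelial sums was not tested. The melanocyte markers summed to 279 to 550 FPKM at 11 weeks and 636 to 1548 FPKM at 7 weeks in white follicles, while in yellow follicles the ages met, at 134 to 197 FPKM at 11 weeks and 192 to 360 FPKM at 7 weeks. Single melanocyte markers went both ways in white follicles, where 4 of 8 were positive and 4 negative with age (median -0.01): EDNRB2 (1.51) and KIT (1.29) rose, and PMEL (-1.38) and MLANA (-1.10) fell. The 7 erythroid markers summed to 32.1 to 57.1 FPKM at 11 weeks and 103 to 173 FPKM at 7 weeks in white follicles. Of the 4 tested there, HBA1 (-2.61) and HBBA (-2.33) fell past both thresholds, against 4.49% of all genes. ALAS2 differed by 0.32 and SLC4A1 by -0.79. The 6 leukocyte markers summed to 66.7 to 88.6 FPKM at 11 weeks and 51.3 to 63.5 FPKM at 7 weeks in white follicles. In yellow follicles the erythroid and the leukocyte sums overlapped between the ages. The 5 osteoclast-like markers, of which 3 were below 1 FPKM in every library, summed to 45.3 to 83.8 FPKM at 11 weeks and 94.1 to 121 FPKM at 7 weeks in yellow follicles. In white follicles they summed to 66.8 to 72.3 FPKM at 11 weeks and 115 to 142 FPKM at 7 weeks. CTSK made up most of these sums, at means of 63.9 and 64.4 FPKM in yellow and white follicles at 11 weeks, and 99.5 and 116 FPKM at 7 weeks. The fibroblast sum overlapped between the ages in both colours. Over both colours 2 of its 7 markers rose past both thresholds, PDGFRA (2.88) and PDGFRB (3.56), against 25.0% of all genes. The other fibroblast markers did not pass, from -0.23 for COL1A1, the most abundant, to 0.98 for COL1A2. The 9 keratinocyte markers summed to 1766 to 1811 FPKM at 11 weeks and 1460 to 1639 FPKM at 7 weeks in white follicles. In yellow follicles the ages overlapped, at 1323 to 1746 FPKM at 11 weeks and 1547 to 1740 FPKM at 7 weeks. Over both colours 3 of the 9 keratinocyte markers rose past both thresholds, TP63 (2.47), DSG2 (2.16) and DSP (1.11), against 25.0% of all genes. KRT14 (-1.05) fell past both, as did 2.96% of all genes. The part of these cells in the age differences of STEAP2, ATP7A, ATP7B and ATOX1 was not tested.

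Other genes of the copper and iron pathways were taken from 4 lists. At neither age did any of them pass both thresholds by colour, against 0.00% of all 14806 genes tested at 11 weeks and 0.0288% of 13895 at 7 weeks. Of the copper chaperone and storage list, 11 of 16 names were in the table and 9 of these 11 were negative with age in yellow and 8 in white follicles, with a median of -0.43 over both colours, against 0.44 for all genes. The list's median was also below that of all genes under the 4 other scalings, at -0.87 against 0.03 with median-of-ratios scaling, -0.72 against -0.04 with quantile normalization, -0.38 against 0.49 with equal totals and -0.85 against -0.20 with centring by span. Over both colours 2 of the 11 passed as lower, against 2.96% of all genes, and 1 as higher, against 25.0%. MT3, a metallothionein, fell by 1.31 (limma's adjusted p = 1.38e-05 after Benjamini-Hochberg). CCS, the chaperone of superoxide dismutase, fell by 1.03 (limma's adjusted p = 8.79e-06). MTF1, the metal-responsive transcription factor of metallothionein genes, rose by 1.22 (limma's adjusted p = 0.00139). MT3 averaged 746 ± 192 FPKM in yellow and 785 ± 40.8 FPKM in white follicles at 11 weeks, and 1719 ± 269.5 and 2101 ± 475 FPKM in yellow and white follicles at 7 weeks (SD, n = 3 each). COX17, which carries copper to cytochrome c oxidase, differed by -0.92, short of the fold threshold as ATOX1 was. MEMO1 differed by 0.08, and by -0.37 with median-of-ratios scaling and -0.82 with centring by span. MTF1 was at 0.25 to 1.27 under the other scalings, MT3 at -1.76 to -0.81 and CCS at -1.48 to -0.85.

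Of the list of copper enzymes, 17 of 21 names were in the table and 15 were tested. The list takes in TYRP1 and DCT as relatives of tyrosinase, whether or not they hold copper. Over both colours 4 of the 15 passed, all higher at 11 weeks, against 25.0% of all genes, and the list median was 0.37, against 0.44 for all genes. The list median was -0.04 with median-of-ratios scaling, against 0.03 for all genes, and -0.26 with centring by span, against -0.20. They were the ferroxidases HEPH (1.87), HEPHL1 (1.77) and CP (1.32) and PAM (1.01), which amidates peptides and was at -0.26 with centring by span. No gene of the list passed as higher with that centring. HEPHL1 reached 40.8 ± 28.7 FPKM in yellow and 42.8 ± 3.21 FPKM in white follicles at 11 weeks and 17.8 ± 6.42 and 7.99 ± 3.79 FPKM in yellow and white follicles at 7 weeks (SD, n = 3 each). LOXL2, a lysyl oxidase, passed in white follicles (1.16, limma's adjusted p = 0.000172), and COX1, the mitochondrial catalytic subunit of cytochrome c oxidase, in yellow follicles (1.00, limma's adjusted p = 0.00606). SOD1 differed by -0.46 over both colours and MOXD1 by 0.33, a value of -0.12 with median-of-ratios scaling and -0.94 with centring by span. TYR, the copper enzyme of melanin synthesis, named here after its values were seen, had 20.0 ± 2.50 FPKM in yellow and 29.0 ± 10.3 FPKM in white follicles at 11 weeks, and 24.3 ± 4.32 and 40.2 ± 21.9 FPKM in yellow and white follicles at 7 weeks, and passed in no comparison, while centring by span took its age difference over both colours past the thresholds (-1.61). TYRP1 and DCT, melanosomal enzymes also named after their values were seen, had the widest colour differences of the list. TYRP1 had 14.7 ± 5.63 FPKM in yellow and 91.4 ± 28.9 FPKM in white follicles at 11 weeks, and 17.1 ± 5.82 and 96.3 ± 47.0 FPKM in yellow and white follicles at 7 weeks (SD, n = 3 each). TYRP1 differed by -2.64 in older birds (limma's adjusted p = 0.297) and -2.44 in younger birds (limma's adjusted p = 0.113). For DCT the values were -1.47 in older birds (limma's adjusted p = 0.683) and -2.49 in younger birds (limma's adjusted p = 0.316), so neither gene passed the test used here. DCT was low, at means of 0.0390 FPKM in yellow and 0.356 FPKM in white follicles at 11 weeks, and 0.0788 and 1.31 FPKM at 7 weeks. Its yellow means are under the added 0.1. The paper called TYRP1 at both ages and DCT at 7 weeks, and its quantitative PCR found both significantly lower in yellow follicles at every age measured.

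Of the iron genes, 18 of 22 were in the table, with a median of 0.60 over both colours, against 0.44 for all genes. With centring by span the median was -0.20, as was that of all genes. The 5 of 18 that rose, against 25.0% of all genes, were FLVCR1, a heme exporter (2.70), CYBRD1, a ferric reductase of the plasma membrane (2.22), TFRC, the transferrin receptor (2.16), SLC25A37, the mitochondrial iron importer (1.14), and SLC40A1, the iron exporter ferroportin (1.13). The first 3 passed under each of the 4 other scalings as well. CYB561A3, a reductase of late endosomes and lysosomes, fell by 1.05, the 1 of 18 that passed as lower, against 2.96% of all genes. FTH1, the ferritin heavy chain and the most abundant of the list, differed by -0.59, and SLC11A2, the importer of divalent metals, by 0.41, a value of -0.04 with median-of-ratios scaling and -0.86 with centring by span. Thus CYBRD1 and STEAP2, both reductases, were higher at 11 weeks, and CYB561A3 was lower. CYB561A3 was short of the fold threshold with quantile normalization (-0.97) and equal totals (-0.99). The reductase STEAP3 (-0.17) did not pass, nor did CYB561 (-0.95) and FRRS1 (0.64), list reductases named after their values were seen. CYB561 passed as lower with median-of-ratios scaling (-1.29), quantile normalization (-1.79) and centring by span (-1.15).

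Of the genes that sort cargo from the Golgi to melanosomes, 17 of 23 were in the table, with a median of 0.21 over both colours, against 0.44 for all genes. The list median was -0.24 with median-of-ratios scaling, -0.07 with quantile normalization and -0.25 with centring by span. For all genes these settings gave 0.03, -0.04 and -0.20. Over both colours 2 of the 17 passed as higher, against 25.0% of all genes, and 1 as lower, against 2.96%. AP1G1 (1.61) and AP3B1 (1.26), adaptor subunits, rose over both colours. AP1G1 was no longer past the thresholds with centring by span (0.72), nor was AP3B1 with median-of-ratios scaling (0.81), quantile normalization (0.68) or centring by span (-0.01). AP1M1 passed in white follicles (1.05), and SNAPIN, a subunit of the BLOC-1 complex, fell by 1.25, past both thresholds under each of the other scalings too. COMMD1, which takes part in the return of copper pumps from endosomes, differed by -0.79 and AP3S2 by -0.67, neither past the fold threshold, which both passed with median-of-ratios scaling (-1.24 and -1.12).

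**Figure D5:**
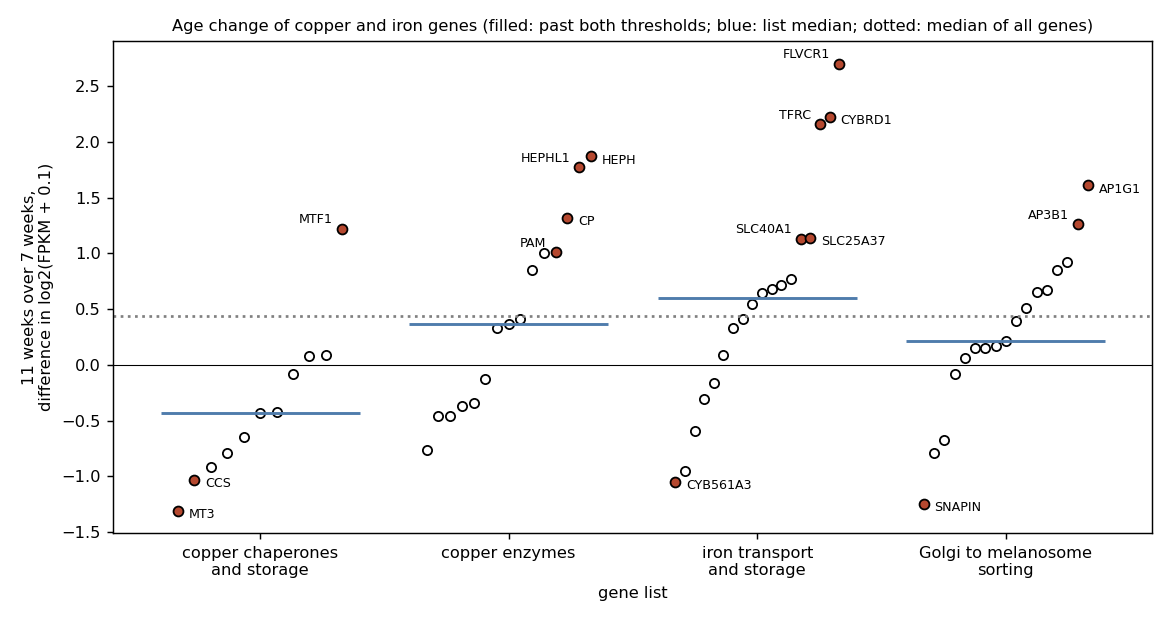
Difference in log2(FPKM + 0.1), 11 weeks over 7 weeks over both colours, of the tested genes of 4 lists, 1 point per gene; filled points passed both thresholds, blue lines are list medians and the dotted line is the median of all genes, 0.44. The median of the copper chaperones is -0.43 and that of the iron genes 0.60, which is -0.20 with centring by span.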

How the data were processed

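RNA of 12 feather follicle libraries had been sequenced by the authors. Per the submitters' processing notes, Bowtie2 version 2.2.3, TopHat2, HTSeq version 0.6.0 and GRCg6a were used. The authors deposited FPKM for 24353 genes, and which program computed them is not given in the sources used here. Among them, 562 values lie above 0 and below 1e-06, and low values show no steps of whole reads, so reads per value could not be recovered. The study lists read totals per library, which were not used here.

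The members and lists were chosen with earlier results of these data known. FPKM were analysed as log2(FPKM + 0.1) with limma version 3.58.1 (R version 4.3.3, eBayes with trend) keeping genes whose mean over the libraries compared was 0.1 FPKM or more, with Benjamini-Hochberg adjustment over all of them. Both thresholds were met at an adjusted p up to 0.05 together with a log2 difference of 1 or more in size. Exact permutation tests were two-sided, over 20 splits or, within colours, 400. The DEGseq test needs counts and was not run. The rule for naming genes took every member, list genes that passed in a comparison, the 3 most abundant of each list and the 5 genes most like STEAP4. Fits were checked on simulated data.

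Alternatives changed the pseudocount (1 or 0.01), the filter (none or 1 FPKM), the scaling (median-of-ratios, quantile, equal totals), eBayes (robust or without trend), the fold threshold (none) and the spread (from all 12 libraries), added the replicate number as a block, or left out each library. Centring by span, the scalings of list genes and settings that change only calls at 11 weeks were added after seeing the data. Centring by span subtracted, in each library, the median log2 level of the gene's span group. It left the median age difference of all genes over both colours at -0.20. Age differences under it thus lie below those taken against the median difference of the span group. For SLC31A1 over both colours these were -0.55 and -0.34. Whether libraries of the same number at both ages come from the same bird is unclear, since the study's methods describe birds plucked at several ages and its results count separate individuals.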

Additional observations from a re-analysis of the deposited data

How the results depend on the processing

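Counts of genes past both thresholds depended on the settings. By colour at 11 weeks 0 genes passed, and 2 with eBayes without trend or with a spread shared by all 12 libraries. At 7 weeks 4 passed, 2 with a pseudocount of 0.01 or a minimum mean FPKM of 1, 7 with median-of-ratios scaling, 11 with quantile normalization and 0 with a shared spread. With age 3234 passed in yellow follicles, 4492 in white and 4071 over both. A pseudocount of 1 gave 1872, 2607 and 2219, no fold threshold 6200, 9475 and 10011, and in yellow follicles quantile normalization gave 1760 and centring by span 2004. Leaving out 1 library gave 0 to 2 by colour at 11 weeks, 3 to 13 at 7 weeks, 2015 (without 7-week replicate 3) to 3418 in yellow, 4310 to 4773 in white, 3768 to 4345 over both and 0 to 2 for colour by age.

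Signs turned for SLC31A1 by colour at 7 weeks (-0.00 with median-of-ratios scaling, -0.08 with span centring), with age in yellow follicles (-0.23, -0.12 with quantile normalization, -0.68), in white (-0.42 with span centring) and over both (-0.10, -0.55). STEAP3 in yellow follicles turned to -0.30, -0.78 and -0.77 under these 3, to -0.10 without yellow 11-week replicate 4 and -0.11 without yellow 7-week replicate 3, in a range up to 0.22 over single libraries left out. STEAP4 at 7 weeks turned to -0.15 and -0.00 without replicate 1 of yellow and of white, and reached 0.71 without yellow replicate 4. ATP7A in colour by age was -0.31, and 0.18 with a pseudocount of 1 or without yellow 11-week replicate 4, and 0.01 without yellow 7-week replicate 4, against -1.11 without yellow 11-week replicate 3. The cause was not tested.

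With the replicate number as a block, 18 genes passed by colour at 7 weeks, STEAP2 lost its call in yellow follicles (adjusted p = 0.0571 from limma) and ATOX1 gained one in white (-1.05). Libraries sharing a number deviated together with r of 0.096 to 0.247 between the yellow ages, and of 0.253 and 0.267 between the white ages, which share 2 numbers, and each of these 5 libraries of 11 weeks correlated best with its own number. By colour r was 0.046 to 0.198 at 11 weeks and -0.036 and 0.235 at 7 weeks. The numbers were not taken as pairs, since 1 of 3 yellow pairs was below 0.1, white follicles had only 2 pairs, and whether birds were shared is unclear. The Dominant white genotypes were the same at both ages for each of these 5 numbers. The main age tests, the permutation tests among them, treated all libraries as separate birds.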
